A study of Mus musculus with 2 samples.

Results

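Neutrophils were described in 2 single-cell RNA libraries of mouse pancreatic tumours, 1 from each group. A barcode, the tag that marks the transcripts of 1 cell, was kept when it held at least 500 UMIs (unique molecular identifiers, each standing for 1 captured transcript), 200 to 5000 detected genes and a mitochondrial share up to 8%. Neutrophils were then chosen on their own UMIs. They held at least 10 UMIs of S100a8 and S100a9 together and at least 1 UMI of Csf3r, Cxcr2, Retnlg or G0s2. They held up to 2 UMIs of C1qa, C1qb and C1qc, none of Cd3d, Cd3e and Cd3g, and up to 1 UMI of Krt8 and Krt18. This gave 1070 neutrophils of 20428 kept cells, 521 of 8739 in the FLOX library and 549 of 11689 in the library labelled MCT1-KO.

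The tumours grew from KPC cells, a line from mouse pancreatic cancer, injected into the pancreas of C57BL/6-background mice. FLOX mice carried floxed MCT1 (Slc16a1, a lactate and proton carrier). In MCT1-KO mice a tamoxifen-activated Cre driven by Col1a2, a collagen gene of stellate cells and fibroblasts, was meant to remove it from those cells, so neutrophils were not the cells targeted. Tamoxifen was given before implantation, and the scheme also shows corn oil. The sources used here do not say which of these FLOX mice received, whether they carried the Cre, or how many tumours were pooled. The libraries held unsorted cells after red cell removal. With 1 library per condition no difference between the libraries has a replicate check, and every interval below covers counting error only.

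Neutrophils are short-lived granulocytes made in bone marrow. Their granule proteins are made in order as the cell matures, primary granule enzymes in promyelocytes, secondary granule proteins from the myelocyte stage and tertiary ones last, while CSF3R carries the growth signal and CXCR2 reads the chemokines that draw the cell out of the marrow. In tissue they release interleukin 1 and chemokines within hours, and tumours of the pancreas are known for holding many of them.

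The promoters of 4 genes that the results turn on are shown as reference sequence, as those in which a motif searched for was found. The S100a8 window, searched too, held no C/EBP match. S100a9 and Retnlg are genes the neutrophils were chosen on, Cxcl2 is a chemokine for CXCR2, and Dusp1 is an immediate-early phosphatase that was among the genes at lower level in the library labelled MCT1-KO. Each run is the 250 bases before the start that RefSeq gives the gene, 5′ to 3′ along its own strand, on GRCm38.p6, with a motif match in capitals. The windows lie at chr3:90695722-90695971 on the minus strand, chr16:48872358-48872607 on the plus strand, chr5:90903649-90903898 on the plus strand and chr17:26508473-26508722 on the minus strand. The gene positions given further on are from GENCODE, whose starts differ. The Dusp1 window lies within the longer GENCODE gene, and the Cxcl2 window runs past the GENCODE start.
S100a9, C/EBP letters: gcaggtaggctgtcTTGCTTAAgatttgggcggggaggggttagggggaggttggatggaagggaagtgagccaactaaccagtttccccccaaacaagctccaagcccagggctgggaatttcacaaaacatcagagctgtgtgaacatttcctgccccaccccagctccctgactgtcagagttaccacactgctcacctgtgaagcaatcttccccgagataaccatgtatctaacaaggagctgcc
Retnlg, C/EBP letters: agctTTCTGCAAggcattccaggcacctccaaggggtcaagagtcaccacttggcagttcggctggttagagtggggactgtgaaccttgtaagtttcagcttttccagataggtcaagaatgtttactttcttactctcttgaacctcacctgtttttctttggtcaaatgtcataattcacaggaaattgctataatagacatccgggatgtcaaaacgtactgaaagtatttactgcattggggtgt
Cxcl2, kB letters: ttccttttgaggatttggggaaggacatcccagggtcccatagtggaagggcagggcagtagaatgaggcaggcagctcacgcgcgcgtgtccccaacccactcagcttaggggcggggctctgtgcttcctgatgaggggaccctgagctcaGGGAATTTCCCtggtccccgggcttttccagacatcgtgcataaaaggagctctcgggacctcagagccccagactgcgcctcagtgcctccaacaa
Dusp1, CRE letters: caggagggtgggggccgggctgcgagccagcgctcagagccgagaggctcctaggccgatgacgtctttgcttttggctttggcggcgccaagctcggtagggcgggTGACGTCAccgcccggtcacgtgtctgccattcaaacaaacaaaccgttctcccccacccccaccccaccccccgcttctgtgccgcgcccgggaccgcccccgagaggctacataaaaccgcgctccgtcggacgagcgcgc
C/EBP factors, kB factors and CREB are regulators of granulocyte, inflammatory and immediate-early genes. The letters TTNNGCAA (C/EBP), searched on both strands, stood in the windows of 6 of the 18 matched genes among the 20 that led in neutrophils (Ly6g, Mmp8, Rdh12, Retnlg, S100a9 and Stfa1), and in those of 10.8% of all 27025 genes with an entry. The kB letters, GGGA and TTCC with any 2 bases between them, stood in the windows of 6 of 20 matched secreted factor genes (Csf1, Il6, Cxcl1, Cxcl2, Cxcl3 and Cxcl10) and in those of 1.36% of all genes. The palindrome TGACGTCA (CRE) stood in 2 of 20 matched immediate-early genes, Dusp1 and Btg2, and in 1.77% of all genes. TGANTCA (AP-1) stood in 6 of the 20 secreted factor genes, in 1 of 20 immediate-early genes, in none of the 18 leading genes, and in 7.82% of all genes. Among the 9 matched genes that stand with Ccl3 at one end of the axis described last they stood in 2, and the kB letters in 1. In Cxcl2 the 2 matches overlap, and they begin 97 and 96 bases before the start. These matches are a description of letters in a window, since the files hold no binding or accessibility data.

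The libraries held 177334432 and 151118092 UMIs over all barcodes, and the kept cells 61149689 and 81494894. Slc16a1, checked in 80 and 178 fibroblast barcodes (at least 10 UMIs of Col1a1, Col1a2 and Col3a1), stood at 18.5 CPM (9.24 to 33.1) in those of the FLOX library, on 11 UMIs, and at 30.4 CPM (22 to 40.9) in those of the library labelled MCT1-KO, on 43. The ratio was 1.64 with an interval of 0.833 to 3.53, so a lower level in the targeted cells of the library labelled MCT1-KO was not seen, but the interval holds 1. Free RNA carried it at 21.4 and 21 CPM, and its part in the fibroblast barcodes was not tested. With 11 and 43 UMIs these barcodes check the label poorly. The kit read the 3′ ends of transcripts and the sources used here do not give the floxed exons, so this level may not show the deletion at all. The study's other assays of the deletion were not analysed here. CPM are the UMIs of a gene over all UMIs of the summed cells, times 1000000, and brackets after a level or ratio hold its exact 95% interval. Barcodes with 10 to 100 UMIs, which hold free RNA, carried acinar enzyme transcripts at 392 CPM in the FLOX library and 20435 CPM in the other. The libraries shared 59 kept barcode sequences, and none of them was a neutrophil in both.

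Of the kept FLOX cells 5.96% (5.47 to 6.48) were neutrophils, against 4.70% (4.32 to 5.10) of those in the library labelled MCT1-KO. They carried 1.42% and 0.809% of the UMIs of kept cells. The share was higher in the FLOX library under this rule, but not under every version of it. With no UMI of C1q or keratin 8 and 18 allowed, 223 and 374 neutrophils were left, 2.55% and 3.20%. Of 647 and 738 cells with enough S100a8 and S100a9, the step on Csf3r, Cxcr2, Retnlg or G0s2 removed 35 and 92. Next in order, that on C1q removed 56 and 29 cells, and that on keratins, the last, a further 24 and 54. The marker step thus took more cells from the library labelled MCT1-KO, whose neutrophils were shallower. Its part in the lower share was not tested.

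Neutrophils were small libraries. They held a median of 1504 UMIs and 774 genes in the FLOX library and 1089 UMIs and 628 genes in the library labelled MCT1-KO, with ranges of 558 to 14783 and 511 to 12904 UMIs. The other kept cells held medians of 4674 and 4160 UMIs, and C1q macrophage barcodes (at least 10 C1q UMIs) 5898 and 4840. The mitochondrial share of neutrophils was also low, with medians of 0.575% and 0.620% against 2.32% and 2.59% in the other kept cells. Macrophage and T cell barcodes were also shallower in the library labelled MCT1-KO, keratin-high barcodes were nearly level (17952 and 17343 UMIs) and fibroblast barcodes were deeper (5569.5 and 7683 UMIs). Because depth differed, shares of cells are also given after each cell was thinned to 500 UMIs, which left out no neutrophil.

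**Figure D1:**
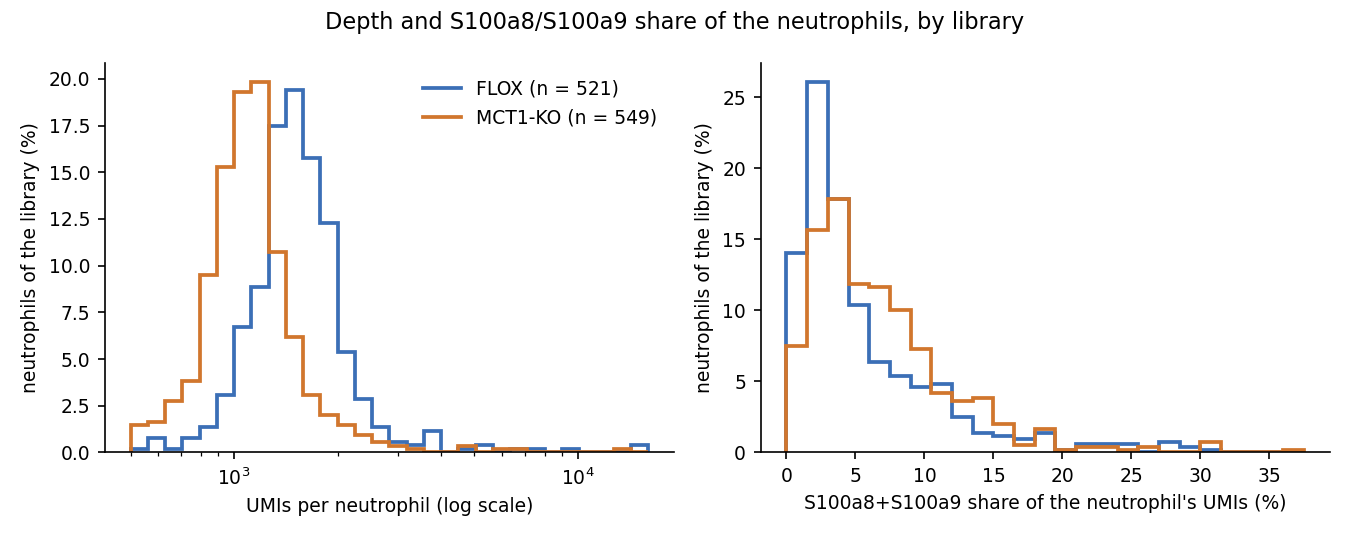
UMIs per neutrophil (left, log scale) and the share of its UMIs that came from S100a8 and S100a9 (right), as the percentage of each library's neutrophils per bin, with FLOX in blue (n = 521 cells) and MCT1-KO in orange (n = 549 cells). The MCT1-KO cells peak at fewer UMIs (median 1089 against 1504) and lie further to the right in S100 share (median 5.63% against 3.69%).

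The genes of the rule describe the choice and are no finding. S100a8 and S100a9 (chr3:90668978-90670035 and chr3:90692632-90695721, GRCm38, GENCODE vM21), the 2 chains of calprotectin, gave a median of 54 UMIs per neutrophil (10 to 3535) among FLOX cells and 57 (10 to 4032) among the others, or 3.69% and 5.63% of the cell's UMIs. S100a8 stood at 36542 CPM (36141 to 36945) in FLOX neutrophils against 44997 CPM (44486 to 45512) in those of the library labelled MCT1-KO. S100a9 stood at 33389.8 CPM (33007 to 33776) in FLOX neutrophils against 35176 CPM (34725 to 35632) in those of the library labelled MCT1-KO. The libraries differed little in these levels, with ratios of 1.23 and 1.05 (MCT1-KO over FLOX, as for all ratios below).

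The other 4 genes of the rule differed among themselves. Retnlg (chr16:48872621-48874496), a resistin-like secreted protein of neutrophils, stood at 5248 CPM (5097 to 5403) in FLOX neutrophils against 7485 CPM (7278 to 7697) in those of the library labelled MCT1-KO. G0s2 (chr1:193272161-193273217), an inhibitor of fat breakdown, stood at 6260.0 CPM (6095 to 6428) in FLOX neutrophils against 1737 CPM (1638 to 1841) in those of the library labelled MCT1-KO, a ratio of 0.278 (0.26 to 0.296). G0s2 was thus the 1 rule gene past 2-fold between the libraries, and it was lower in the library labelled MCT1-KO. Csf3r (chr4:126024550-126044440), the receptor for granulocyte colony-stimulating factor, had a ratio of 0.547 (0.488 to 0.613) with 1048 and 434 UMIs, and Cxcr2 (chr1:74153989-74161246) one of 1.09 (0.937 to 1.26) with 396 and 326 UMIs. The cells rested on these markers to different degrees. Of the 521 FLOX neutrophils 35 held just 1 UMI of the 4 genes, as did 99 of 549 in the other library, and 286 and 154 held 10 or more.

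At the edge of the rule the values ran on without a gap. The 21 FLOX neutrophils with 10 to 12 S100a8 and S100a9 UMIs had a median of 0.797% of their UMIs in these genes and 6 UMIs of the 4 receptor and marker genes. The 35 FLOX barcodes just outside, with 7 to 9 UMIs and the rest of the rule met, had 0.584% and 5. In the library labelled MCT1-KO 21 cells lay just inside (1.12% and 2 UMIs) and 14 just outside (0.806% and 1.5 UMIs).

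The label was checked against 20 neutrophil markers that chose no cell. All 20 had at least 50 UMIs over the libraries, and 18 were at least 4-fold higher in neutrophils than in the other kept cells of both libraries. Of all 3726 genes with 50 UMIs, 482 (12.9%) were past that fold, and the class had been chosen on the same cells, so this count is a description. Il1r2, a decoy receptor for interleukin 1, was detected in 93.7% and 92.9% of neutrophils, and in 74.5% and 76% at equal depth against 0.19% and 0.435% of keratin-high barcodes (at least 10 Krt8 and Krt18 UMIs, median 17952 and 17343 UMIs before thinning), which should lack it. Hdc, which makes histamine, was detected in 93.5% and 82.1% of neutrophils, 75.6% and 60.3% at equal depth against 0.38% and 0.0484% of keratin-high barcodes. Ly6g (chr15:75155240-75159126), the surface antigen by which mouse neutrophils are usually sorted, was detected in just 4.99% and 1.64% of neutrophils, 1.54% and 0.546% at equal depth against 0% and 0% of keratin-high barcodes, on 67 and 14 UMIs. It still stood 244 and 286 times as high as in the other kept cells.

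The 20 genes with the highest level over the other kept cells, by the smaller of the libraries' values, named the lineage in more detail. Beside 5 of the 6 rule genes they held the stefins Stfa1, Stfa2, Stfa2l1 and Cstdc4 (cysteine protease inhibitors), Mmp8 (neutrophil collagenase), Il1f9 (interleukin 36 gamma), Asprv1 (a protease), Ceacam10, Chil1, Rdh12, Mirt2, Spatc1, Amer2, H2-Q10 and Ly6g. Stfa2l1 stood 182 and 551 times as high in neutrophils as in the rest of the FLOX library and of the other. Mmp8 stood 152 and 275 times as high, and Il1f9 189 and 472 times. Rdh12, a retinol dehydrogenase, and H2-Q10, a class I gene, stood at nearly the same level in the libraries (ratios 1.01 (0.838 to 1.21) and 1.01 (0.735 to 1.38)). The stefins are near-identical neighbours, and reads that fit several of them may have been split or dropped in counting, so their single values are uncertain.

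**Figure D2:**
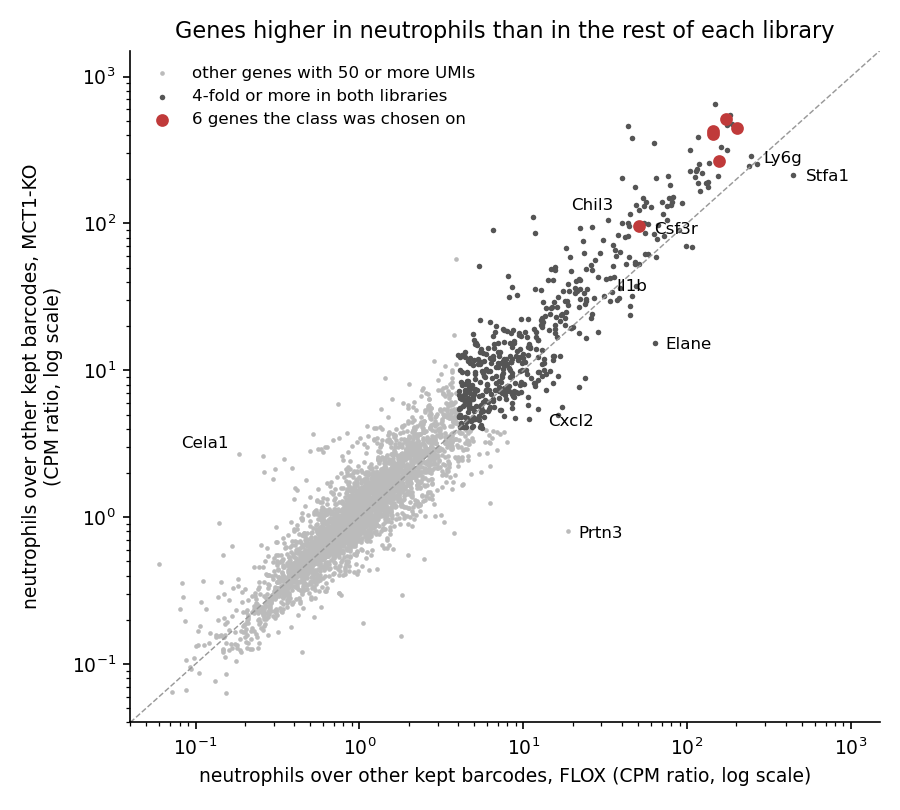
CPM in neutrophils over CPM in all other kept cells, in the FLOX library (x, log scale) and in the library labelled MCT1-KO (y, log scale), 1 point per gene with at least 50 neutrophil UMIs and a value above 0. Rule genes in red and the genes 4-fold or more higher in both libraries in dark grey lie at the upper right, Prtn3 and Elane lie below the dashed line of equality and Cela1 above it.

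Other cell types' markers were counted over their whole lists. Of 9 eosinophil, basophil and mast cell genes 6 were at 0 in both libraries (Epx, Prg2, Mcpt8, Cpa3, Fcer1a and Kit), and the list summed to 40.2 and 10.6 CPM against 5.87 and 2.96 in the other kept cells. Nearly all of it was Siglecf (34 and 6 UMIs of 35 and 7), which neutrophils in tumours can also carry. Ccr2, the receptor that defines inflammatory monocytes, had no UMI, for which the exact interval runs up to 4.24 and 5.6 CPM. The 7 monocyte markers summed to 805 and 552 CPM. T and NK markers summed to 45.9 and 7.59 CPM, with 5 of 10 at 0 (the Cd3 genes by the rule, Klrb1c and Ncr1). Macrophage markers were present at a low level, 1812 CPM (1724 to 1904) in FLOX neutrophils against 1193 CPM (1111 to 1279) in those of the library labelled MCT1-KO, against 13003 and 10161 CPM in free RNA. Fibroblast markers summed to 318 and 481 CPM, tumour epithelium markers to 150.4 and 184 CPM, dendritic cell markers to 24.1 and 18.2 CPM, and B and plasma cell markers to 40.2 and 21.2 CPM. Endothelial markers summed to 17.2 and 22.8 CPM, and red cell and platelet markers to 21.8 and 9.1 CPM. The lists from the T and NK markers on lay below their level in the other kept cells, the dendritic one by little in the library labelled MCT1-KO (there 21.1 CPM). The acinar genes lay below it in the FLOX library and above it in the other. The 16 digestive enzyme genes summed to 245 CPM (213 to 279.7) in FLOX neutrophils against 8274 CPM (8056 to 8497) in those of the library labelled MCT1-KO, against 465 and 3161 CPM in the other kept cells, and Cela2a was at 0.

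The libraries' neutrophils were compared gene by gene over the 3726 genes with at least 50 UMIs. In the library labelled MCT1-KO 146 genes (3.92%) were at least 2-fold higher and 148 (3.97%) at least 2-fold lower, and the median ratio over all of them was 1.07. These counts moved when free RNA was subtracted, at shares that the Apoe values below put too high. With it subtracted on the acinar scale 796 genes were higher and 184 lower, and on the collagen scale 285 and 808, so the balance of higher and lower genes is not settled and shares of all genes below hold for the unsubtracted counts. All 15 of the highest ratios belonged to genes of the exocrine pancreas (Cela1, Ctrl, 2210010C04Rik, Pnlip, Zg16, Try5, Cela3b, Ctrb1, Reg2, Cpa1, Rnase1, Pnliprp1, Cpb1, Try4 and Sycn). Ctrb1, chymotrypsinogen B, stood at 54 CPM (39.7 to 71.8) in FLOX neutrophils against 2139 CPM (2029 to 2254) in those of the library labelled MCT1-KO. It stood at 109 and 4989 CPM in free RNA, and its ratio was 24 (21.4 to 26.9) in macrophage barcodes and 15.8 (12.5 to 20.2) in T cell barcodes (at least 2 Cd3 UMIs). All 15 acinar genes with 50 UMIs were past 2-fold. With free RNA subtracted on the collagen scale several of them went to the other side of 1, Ctrb1 to 0.152. The part of free RNA in the other results was not tested as such, but the ratios were also computed with it subtracted, scaled by acinar or by collagen transcripts. Taking all acinar UMIs as free RNA puts its share of neutrophil UMIs at 62.3% (54.2 to 71.3) for FLOX cells and at 40.5% (39.4 to 41.6) for the others, and taking all Col1a1, Col1a2 and Col3a1 UMIs as free RNA puts it at 13.3% (10.3 to 17) and 46.6% (38.8 to 55.4). The scales thus disagree on which library held more, and CPM and shares of cells with a UMI carry that uncertainty. Apoe stood at 1250 and 828 CPM in neutrophils against 8770 and 7324 CPM in free RNA. Both acinar shares, and the collagen share of the library labelled MCT1-KO, would take away more Apoe than those neutrophils held. Each scale subtracts 1 share per library from every gene. A share too large for Apoe is thus too large for all genes, and ratios after either subtraction are overcorrected. The fibroblast genes Col1a1, Col1a2 and Dcn (decorin) were also past 2-fold higher with 27 and 47 UMIs, 13 and 48 UMIs and 52 and 92 UMIs. A single cell of the library labelled MCT1-KO held 48.9%, 81.2% and 73.9% of their UMIs there, and the ratios went to the other side of 1 in several of the alternatives.

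Chemokines and cytokines were mostly at a lower level in the library labelled MCT1-KO, with an interval wholly below 1 for 17 of 22 genes and for 497 of all 3726. Intervals narrow as UMIs rise. The list held 52776 and 20690 UMIs, and just 1194 of all 3726 genes had 200 or more. Counts of intervals, here and for the lists below, are thus not like for like with those of all genes. Of the 22 measured genes of this list, which also holds the enzyme Ptgs2, 8 were at least 2-fold lower in the library labelled MCT1-KO, against 3.97% of all genes, 1 (Cxcl5, 13 and 39 UMIs) was 2-fold higher, and the median ratio was 0.586. The lists here and below were chosen with earlier results of these data known, so such counts beside the share of all genes are a description. The list summed to 60598 CPM (60082 to 61117) in FLOX neutrophils against 31394 CPM (30967 to 31824) in those of the library labelled MCT1-KO. In C1q macrophage barcodes the median ratio of the list was 1.02, over 27 members with 50 UMIs there, and in T cell barcodes 0.528 over 13. The 8 lower genes were Osm, Ccl3, Ccl4, Ptgs2, Cxcl2, Cxcl3, Ccl6 and Cxcl9. Of these Cxcl9, at 48.2 and 21.2 CPM, lay far below its level in free RNA (339.6 and 172 CPM).

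Cxcl2 (chr5:90903871-90905938), a CXCR2 ligand that draws further neutrophils, stood at 31677 CPM (31304 to 32053) in FLOX neutrophils against 12828 CPM (12556 to 13104) in those of the library labelled MCT1-KO, a ratio of 0.405 (0.395 to 0.415). Nearly every neutrophil of both libraries held it (96.9% and 92.2%). Keratin-high barcodes also held it at equal depth (42.9% and 35.8%, against 94.8% and 86.9% of neutrophils), so its presence alone does not mark the class. The macrophage ratio was 1.28 (1.26 to 1.3), on the other side of 1. Il1b (chr2:129364570-129371139), the precursor of interleukin 1 beta, was closer between the libraries, at 16790.2 CPM (16519 to 17065) in FLOX neutrophils against 13098 CPM (12823 to 13377) in those of the library labelled MCT1-KO, a ratio of 0.78 (0.76 to 0.801), and 96.9% and 92.2% of thinned neutrophils held a UMI of it against 1.9% and 0.58% of keratin-high barcodes.

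Among the CC chemokines Ccl3 (chr11:83647844-83649355), a chemokine for monocytes and lymphocytes, stood at 3266 CPM (3147 to 3388) in FLOX neutrophils against 743 CPM (679 to 812) in those of the library labelled MCT1-KO, a ratio of 0.228 (0.206 to 0.251). It was found in 60.5% and 21.7% of neutrophils, and in 44.9% and 15.1% at equal depth against 1.14% and 0.145% of keratin-high barcodes. In macrophage barcodes Ccl3 stood at 606 and 617 CPM, a ratio of 1.02 (0.983 to 1.05). Its ratio was 0.637 (0.547 to 0.739) in T cell barcodes, so Ccl3 was lower there as well, though not in macrophages. The ratio in keratin-high barcodes was 0.325 (0.244 to 0.433), at 9.98 and 3.24 CPM. That lay far below the level in free RNA (200 and 95.2 CPM), which was itself lower in the library labelled MCT1-KO. With 1 library each the differences between cell types have no test. Ccl4, its neighbour, had a ratio of 0.297 (0.253 to 0.347) with 890 and 200 UMIs, and Ccl6 one of 0.491 (0.436 to 0.551) with 1056 and 392 UMIs.

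Among the other genes of the list Osm (oncostatin M, of the interleukin 6 family) stood at 734 CPM (678 to 793) in FLOX neutrophils against 152 CPM (123 to 185) in those of the library labelled MCT1-KO, a ratio of 0.207 (0.166 to 0.256), and was found in 47.4% and 13.3% of neutrophils, 27.1% and 7.1% at equal depth against 0.19% and 0.0967% of keratin-high barcodes. Ptgs2 (cyclooxygenase 2, which starts prostaglandin synthesis) stood at 1541 and 564 CPM, a ratio of 0.366 (0.326 to 0.411). Cxcl3 had a ratio of 0.413 (0.327 to 0.518). Not every cytokine was lower by such a margin. Tnf had a ratio of 0.942 (0.833 to 1.07), whose interval holds 1, and Il23a, a subunit of interleukin 23, one of 0.767 (0.661 to 0.889).

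**Figure D3:**
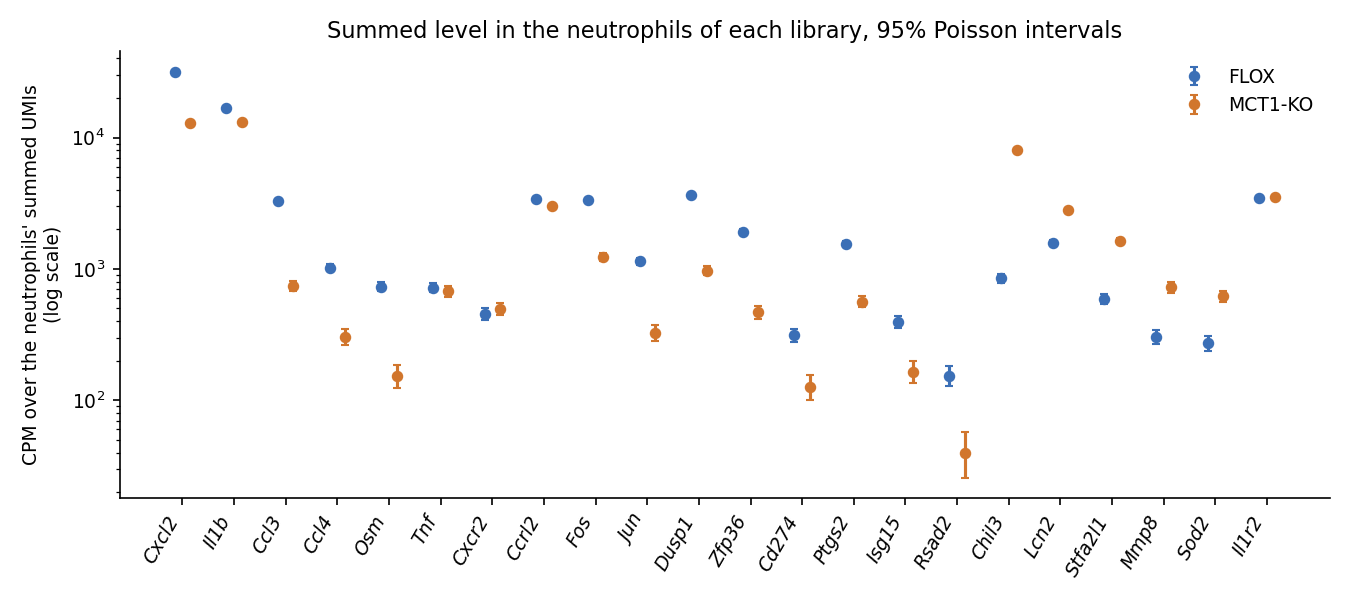
CPM over the summed UMIs of the neutrophils (y, log scale) for 22 genes named in the text, with FLOX in blue and MCT1-KO in orange, 1 library each. Bars are exact 95% Poisson intervals, often smaller than the point, and Ccl3, Osm, Dusp1 and Zfp36 lie far lower in MCT1-KO while Chil3 lies far higher.

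Immediate-early genes, which cells switch on within minutes of a stimulus, held 7 of 23 members at least 2-fold lower (against 3.97% of all genes) and none higher, with a median ratio of 0.62. Dusp1 (chr17:26505590-26562128), which switches off MAP kinases, stood at 3675 CPM (3549 to 3805) in FLOX neutrophils against 968 CPM (894 to 1046) in those of the library labelled MCT1-KO, a ratio of 0.263 (0.242 to 0.287). Zfp36, which speeds the decay of cytokine mRNAs, had a ratio of 0.244 (0.215 to 0.275), Atf3 one of 0.24 (0.192 to 0.298), and Jun one of 0.285 (0.245 to 0.331). Fos stood at 3363 and 1234 CPM, a ratio of 0.367 (0.339 to 0.397). Dusp1 was lower in other cells too, with ratios of 0.632 (0.617 to 0.649) in macrophage, 0.599 (0.532 to 0.673) in T cell and 0.566 (0.556 to 0.576) in keratin-high barcodes. At equal depth 75% and 36.4% of neutrophils held a Dusp1 UMI, and 54.8% and 39.8% of keratin-high barcodes, a cell type that also uses it. Nfkbia, an inhibitor of NF-kB that NF-kB itself induces, was nearly level, 0.967 (0.928 to 1.01).

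Of the genes named for neutrophils that stay in tumours 3 of 17 were at least 2-fold lower (against 3.97% of all genes) and none higher, with a median ratio of 0.621. Cd274 (PD-L1, a ligand that restrains T cells) stood at 312 CPM (276 to 352) in FLOX neutrophils against 126 CPM (100.3 to 156) in those of the library labelled MCT1-KO, a ratio of 0.403 (0.311 to 0.517), and was found in 25.3% and 10.2% of neutrophils, 11.3% and 5.46% at equal depth against 1.52% and 0.58% of keratin-high barcodes. Hmox1 (heme oxygenase 1) had a ratio of 0.28 (0.145 to 0.504) with 66 and 14 UMIs and a free RNA level of 125 and 66.8 CPM. Hcar2, a receptor for hydroxybutyrate, had a ratio of 0.411 (0.351 to 0.48), and Plaur, the urokinase receptor, one of 0.517 (0.463 to 0.577). The list did not move as one. Fth1, ferritin heavy chain, was on the other side of 1 at 1.37 (1.34 to 1.4), and the summed level of the list, most of it Fth1, had a ratio of 1.11. Siglecf, another gene of this state, had 34 and 6 UMIs.

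In the list of genes for T cell restraint 3 of 12 measured genes were 2-fold lower (against 3.97% of all genes), Cd274, Ptgs2 and Cd86, and none higher. Cd86 is best known as a costimulatory ligand, and its 44.8 and 18.2 CPM lay near its level in free RNA (31.6 and 23.1 CPM). Arg2, mitochondrial arginase, had a ratio of 1.45 (1.28 to 1.64), and Entpd1, which breaks down extracellular ATP, one of 1.3 (1.14 to 1.48). These lay above 1. Ido1 and Il4i1 were at 0 in both libraries. Acod1, which makes itaconate and is among the neutrophil markers, stood at 3900.5 CPM (3770.4 to 4034) in FLOX neutrophils against 1534 CPM (1441 to 1632) in those of the library labelled MCT1-KO, a ratio of 0.393 (0.366 to 0.422).

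Interferon-stimulated genes held 7 of 16 members at least 2-fold lower (against 3.97% of all genes) and none higher, with a median ratio of 0.605. Isg15 stood at 393 CPM (352 to 437) in FLOX neutrophils against 164 CPM (134 to 198) in those of the library labelled MCT1-KO, a ratio of 0.417 (0.333 to 0.52). Rsad2 (viperin) had a ratio of 0.256 (0.162 to 0.392) and Slfn4 one of 0.443 (0.331 to 0.585). Ifi27l2a and Rtp4, 2 interferon-induced genes outside the list, were among the 15 lowest ratios of all genes, 0.0519 (0.0288 to 0.0867) and 0.136 (0.0658 to 0.253). Not all members lay below 1, as Ifitm2 had a ratio of 1.53 (1.41 to 1.67) and Irf1 one of 1.22 (1.02 to 1.47). The median ratio of the list was 0.738 in macrophage, 0.748 in T cell and 0.568 in keratin-high barcodes, over 23, 11 and 22 members with 50 UMIs there.

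Antigen presentation genes were lower in all 10 measured members, 4 of them by 2-fold (against 3.97% of all genes), Cd74, H2-Aa, H2-Ab1 and H2-Eb1. The median ratio of the list was 0.577, and it was below 1 in macrophage (0.694), T cell (0.742) and keratin-high barcodes (0.670) too. The 4 class II genes, of macrophages and B cells, are also abundant in free RNA. Cd74 stood at 793 and 294 CPM in neutrophils and at 4459 and 2215 CPM in free RNA, and its level in the other kept cells was higher than in neutrophils in both libraries. B2m, part of every class I molecule, had a ratio of 0.635 (0.592 to 0.681). With free RNA subtracted on the acinar scale B2m and the class I gene H2-K1 went to the other side of 1 (1.83 and 21.7). By Apoe that scale takes away too much, so these 2 values do not give a direction.

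The primary granule proteases and peroxidase Elane, Mpo, Prtn3 and Ctsg had 725 UMIs in the FLOX library, of which 715 came from 1 cell of 14732 UMIs (98.6%), and 11 in the other. They are therefore a description of that cell, although 4 of the 15 lowest ratios belonged to them. The secondary granule genes Camp (cathelicidin), Ngp and Ltf (lactoferrin) were as concentrated, with 4375 and 2280 UMIs of which 97.3% and 95% lay in 11 cells of each library that held 10 or more. Of the other neutrophils most held none, and 86.4% and 84.3% of all neutrophils were at 0.

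The 11 and 11 cells with many secondary granule transcripts were 2.11% and 2.00% of neutrophils. They were deeper than the rest, with medians of 5165 and 2660 UMIs against 1499 and 1083. The FLOX cell with most of them held 1547 such UMIs of 14783, with 12 UMIs of the division genes Mki67 and Top2a and none of Il1b. Its counterpart in the other library held 1036 of 12904, with 19 of Mki67 and Top2a and none of Il1b. Mki67 or Top2a was found in 5 and 2 of these cells, and in 33 of the 510 and 34 of the 538 other, shallower neutrophils. The share of such cells was thus nearly the same in the libraries, on 11 cells each.

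The 12 secondary and tertiary granule genes did not move in 1 direction, with 5 intervals wholly above 1 and 5 wholly below (721 and 497 of all 3726 genes). Chil3 (chr3:106147554-106167564), a chitinase-like lectin of myeloid cells, stood at 846 CPM (786 to 909.6) in FLOX neutrophils against 8012 CPM (7797 to 8231) in those of the library labelled MCT1-KO, a ratio of 9.47 (8.76 to 10.2). It was found in 30.3% and 95.1% of neutrophils, and in 18% and 85.8% at equal depth against 0% and 0.145% of keratin-high barcodes. Chil3 was thus found in a minority of FLOX neutrophils and in nearly all of those in the library labelled MCT1-KO. It was also higher in macrophage barcodes (13 and 218 CPM, ratio 16.7 (14.2 to 19.8)). Free RNA held it at 16.4 and 111 CPM, also higher in the library labelled MCT1-KO.

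Lcn2 (lipocalin 2, which binds bacterial iron carriers) stood at 1572 CPM (1489.7 to 1657) in FLOX neutrophils against 2787 CPM (2661 to 2918) in those of the library labelled MCT1-KO, a ratio of 1.77 (1.65 to 1.9), and was found in 29.6% and 75.6% of neutrophils, 16.1% and 58.1% at equal depth against 2.66% and 2.9% of keratin-high barcodes. In the FLOX library 1 cell gave 17.9% of its UMIs. Mmp8 had a ratio of 2.37 (2.04 to 2.77) and was found in 19.6% and 40.6% of neutrophils, 9.4% and 24% at equal depth against 0% and 0% of keratin-high barcodes. Stfa2l1 and Cstdc4 had ratios of 2.78 (2.5 to 3.1) and 2.71 (2.42 to 3.03), and Wfdc21 one of 1.59 (1.43 to 1.75). Sod2, which removes superoxide in mitochondria, had a ratio of 2.28 (1.94 to 2.69). Of the 12 granule genes 2 (Chil3 and Mmp8) were 2-fold higher, against 3.92% of all genes, and 2 (Ltf, 0.417 (0.345 to 0.501), and Lyz2, 0.482 (0.435 to 0.534)) 2-fold lower, against 3.97%, with a median of 0.938. The ratio of Ltf went to 2.01 with no C1q or keratin UMI allowed. Mmp9, a gelatinase of tertiary granules, was also lower, at 0.574 (0.489 to 0.672). Without the 11 and 11 granule-rich cells that median was 1.96.

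Receptors went both ways, with 5 of 16 intervals wholly above 1 and 3 wholly below (721 and 497 of all 3726 genes). Of the 16 measured chemoattractant and growth factor receptors 1 was 2-fold lower (against 3.97% of all genes), Cxcr4 (98 and 26 UMIs, ratio 0.351 (0.218 to 0.545)), which holds neutrophils in the marrow and marks aged ones, and none higher, with a median of 1.12. Il1r2 had a ratio of 1.01 (0.954 to 1.06) and Ccrl2, an atypical receptor that binds chemerin, one of 0.879 (0.83 to 0.931). Fpr1, the receptor for bacterial formyl peptides, lay at 1.91 (1.63 to 2.24). Among 17 innate receptors Sirpb1c was 2-fold higher (2.88 (2.26 to 3.7), 99 and 216 UMIs), against 3.92% of all genes. Lilr4b was 2-fold lower (0.334 (0.281 to 0.394), 701 and 177 UMIs), against 3.97%. Cd14, the coreceptor for endotoxin, lay at 1.62 (1.54 to 1.7).

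Regulators of granulocyte fate were measured for 14 of 18 genes. Junb, an AP-1 subunit, was 2-fold lower (0.472 (0.443 to 0.503), against 3.97% of all genes) and none was higher, with a median of 0.825. Cebpb and Spi1 (PU.1), factors of the myeloid lineage, had ratios of 0.802 (0.731 to 0.879) and 0.821 (0.696 to 0.966). Mxd1, which rises as granulocytes stop dividing, lay at 1.04 (0.957 to 1.13), and Gfi1 had 2 and 1 UMIs. Of 5 measured cell cycle and precursor genes none was past 2-fold (3.92% of all genes were higher and 3.97% lower), with a median of 0.894. Mki67 had 30 and 32 UMIs.

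Adhesion, oxidase, autophagy and survival genes held few members past 2-fold. Of all genes 3.92% were 2-fold higher and 3.97% lower, so few in such short lists is a description only. None of 9 adhesion genes and none of 14 autophagy genes was past 2-fold, with medians of 1.04 and 1.03. Of 7 oxidase genes and partners Sod2 was past 2-fold, with a median of 1.01. None of the 12 survival genes was past 2-fold, but 6 had an interval wholly above 1 and 2 wholly below (721 and 497 of all 3726 genes). They had a median of 1.17, with Bcl2l11 (BIM, which promotes death) at 1.37 (1.15 to 1.62) and Mcl1, which prevents it, at 0.757 (0.692 to 0.827). Bcl2a1a, Bcl2a1b and Bcl2a1d lay at 1.96 (1.67 to 2.29), 1.43 (1.32 to 1.54) and 1.28 (1.11 to 1.47), and as near-identical copies their single counts are uncertain. Outside this list Pmaip1 (NOXA, of the BCL2 family) had a ratio of 0.145 (0.0788 to 0.247).

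Lactate and glycolysis genes held 4 of 23 members at least 2-fold lower (against 3.97% of all genes), Slc2a3 (a glucose carrier, 0.37 (0.254 to 0.528)), Bnip3 (0.445 (0.286 to 0.676)), Pgk1 (0.493 (0.373 to 0.646)) and Aldoa (0.496 (0.421 to 0.582)), and none higher, with a median of 0.673 against 0.721 in macrophage barcodes. The median of the list was nearer 1 in T cell (0.894) and keratin-high barcodes (0.864). Members with 50 UMIs were 27 in macrophage, 19 in T cell and 23 in keratin-high barcodes. Slc16a3 (MCT4, the lactate exporter) was found in 36.9% and 25.5% of neutrophils, 15.2% and 15.1% at equal depth against 0.569% and 0% of keratin-high barcodes. It had a ratio of 0.866 (0.722 to 1.04) and stood 19.4 and 59 times as high as in the other kept cells. Slc16a1 itself had 6 and 4 UMIs in neutrophils, too few to show a difference (ratio 0.881 (0.183 to 3.72)). Hcar1, the lactate receptor, was at 0. The ratio of Pgk1 crossed 1 when free RNA was subtracted by acinar genes, to 1.45.

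Heat shock genes were at a low level in neutrophils. Of 11 with 50 UMIs 2 were 2-fold lower (against 3.97% of all genes), Hspe1 (0.357 (0.25 to 0.5)) and Dnajb1 (0.44 (0.317 to 0.605)), and the median was 0.801. The medians of 0.538 in macrophage, 0.461 in T cell and 0.578 in keratin-high barcodes were over 20, 19 and 20 members, so they are not like for like. The list summed to 3005 and 2467 CPM in neutrophils and to 12710.4 and 7301 CPM in the other kept cells. The median was 2.45 with free RNA subtracted on the acinar scale and 0.25 on the collagen scale. Both scales overcorrect by Apoe, so these 2 values do not settle its direction in neutrophils. Dnajb1 went from 0.44 to 3.43 with the acinar scaling.

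**Figure D4:**
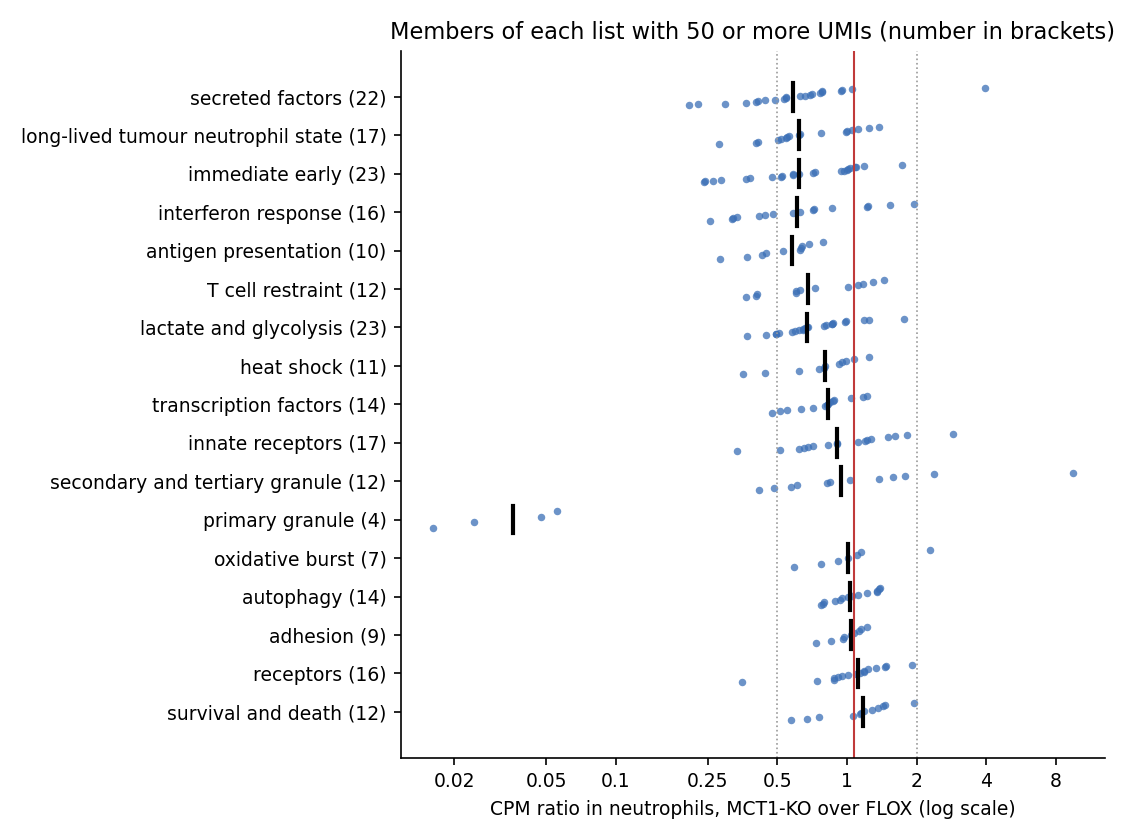
CPM ratio in neutrophils, MCT1-KO over FLOX (x, log scale), of every list member with at least 50 UMIs (blue points, number in brackets). Black bars are list medians, the red line is the median of all 3726 genes (1.07) and dotted lines mark 2-fold, and the secreted factor, immediate-early, interferon and antigen presentation points lie mostly left of the red line while receptors and survival genes lie around it.

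Several of these genes kept their side of 1 in every alternative run for them. Across 15 alternatives in the choice of cells, scaling, depth and free RNA the ratio of Ccl3 lay between 0.187 and 0.284, that of Osm between 0.185 and 0.258, that of Cxcl2 between 0.364 and 0.511 and that of Dusp1 between 0.162 and 0.273. Chil3 lay between 8.65 and 14.7 and Lcn2 between 1.62 and 5.54. Of the 100 named genes past 2-fold, some of them under 50 UMIs, 53 were past it, and 81 on the same side of 1, in every alternative that gave a value.

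Within each library the neutrophils were spread along 1 leading axis, for which the genes of the rule were kept. Each cell was thinned to 500 UMIs, and 1138 genes found in at least 5% of the neutrophils of each library (without acinar, mitochondrial and ribosomal protein genes) were centred per library and scaled to equal variance. The first component held 1.04% of the variance, against 0.755% for the next, so the axis held a small part of the spread at this depth.

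At one end stood Retnlg, S100a8, S100a9, S100a11, Actg1, Actb, Wfdc21, Stfa2l1, Ccl6 and G0s2. At the other stood Ccrl2, Ccl3, Nfkbia, Bcl2a1b, Tnf, Bcl2a1d, Icam1, Gadd45b, Cdkn1a and Il23a. These genes set the axis, so their values along it are a description. Retnlg, S100a8, S100a9 and G0s2 are also genes on which the cells were chosen. Between a cell's score and its S100 share, Pearson r was -0.635 for FLOX neutrophils and -0.595 for those labelled MCT1-KO. The axis thus partly follows how strongly a cell meets the rule. Whether the same axis would lead without the rule genes was not tested. The mean of Retnlg over the lower, middle and upper tertile of the cells was 4.98, 0.5 and 0.0289 UMIs of 500 in the FLOX library, and 7.36, 1.58 and 0.503 in the other. Ccl3 went the other way, with 0.236, 1.76 and 3.53 in the FLOX library and 0.0601, 0.251 and 0.847 in the other. Tnf reached nearly the same mean in the upper tertile of both (0.092, 0.247 and 0.792, and 0.0765, 0.175 and 0.776).

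The tertiles were close in depth. Median UMIs were 1611, 1447 and 1469 in the FLOX tertiles and 1133, 1058 and 1087 in the others, while the S100 share was 8.60%, 3.28% and 2.37%, and 9.76%, 5.0% and 3.55%. The differences between libraries ran along the whole axis for some genes. Cxcl2 had means of 14.8, 17.4 and 18 UMIs in the FLOX tertiles and 4.85, 6.5 and 8.88 in those of the library labelled MCT1-KO, so its lowest FLOX tertile lay above the highest of the other. Dusp1 had 2.05, 2.03 and 1.66 and 0.689, 0.415 and 0.464. Chil3 had 0.299, 0.305 and 0.358 and 2.79, 4.82 and 4.81, higher in every tertile of the library labelled MCT1-KO.

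**Figure D5:**
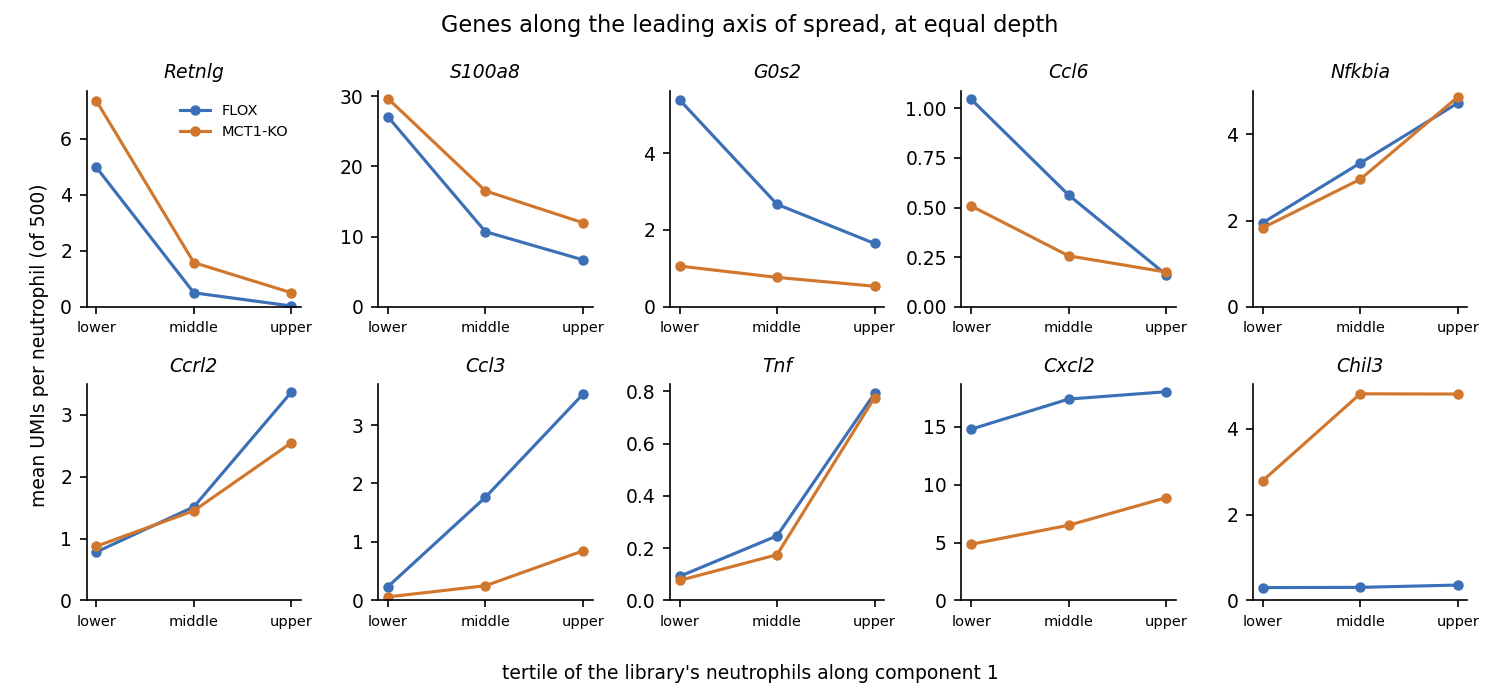
Mean UMIs per neutrophil after thinning each cell to 500 UMIs (y, each panel with its own scale from 0) in the lower, middle and upper tertile of each library's neutrophils along the first component (x), with FLOX in blue and MCT1-KO in orange. Retnlg, S100a8, G0s2 and Ccl6 decrease from left to right in both libraries and Nfkbia, Ccrl2, Ccl3 and Tnf increase, while Cxcl2 and Chil3 keep a gap between the libraries in every tertile.

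Retnlg and Ccl3 were also counted cell by cell, as a description, since Retnlg is a gene of the rule and both set the axis. At 500 UMIs, 20.8% of the 159 FLOX neutrophils with a Retnlg UMI held a Ccl3 UMI, and 55.5% of the 362 without. In the library labelled MCT1-KO the values were 8.75% of 263 and 21.0% of 286. Il1b was found in nearly all cells of both kinds, 94.3% and 98.1% in the FLOX library and 90.9% and 93.4% in the other. This pair was chosen after its values were seen.

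The spread of single genes was compared at the same depth by the ratio of variance to mean over cells, which counting alone puts near 1. It was 15.6 and 11.9 for S100a8 in the FLOX library and the other, 15.6 and 14.2 for Retnlg, 9.66 and 10.7 for Cxcl2 and 5.88 and 4.22 for Ccl3. The S100 genes varied although every neutrophil had to hold them. Il1b varied less, 2.86 and 4.3. Camp (17.7 and 16.6) and Ngp (23.3 and 13.1) were at 0 in nearly all cells and high in the few described above. By the smaller of the libraries' values, the 15 genes with the largest variance in excess of counting were S100a8, S100a9, Cxcl2, Fth1, Retnlg, Il1b, Gm42418 (a locus that overlaps ribosomal RNA), Nfkbia, Tmsb4x, Ngp, Actb, H3f3b, Malat1, Srgn and Ccrl2.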

How the data were processed

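Single-cell 3′ RNA libraries of tumours, 1 labelled FLOX and 1 labelled MCT1-KO, were used. The sources differ on the kit (SeekOne MM in the labels) and name a human genome, while the matrices list 32285 mouse Ensembl genes, so the build is not known here. The authors trimmed reads, counted UMIs with SeekOneTools and deposited raw counts for all barcodes, empty ones included. The submitters' processing notes name Seurat 4.0.0. How reads shared by near-identical genes were counted is not stated. 

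Here neutrophils were taken by the stated rule, their counts summed per library and divided by their total (CPM). Levels carry exact Poisson, shares Clopper-Pearson and ratios conditional exact 95% intervals. With 1 library per group no test was run. Genes under 50 UMIs were left out of counts of genes, except the counts of named genes across the alternatives. When genes were counted past a fold between libraries, a count under 3 UMIs was set to the floor of 3. No doublet caller was run, but an alternative leaves out the 10% of neutrophils with the most UMIs. The intervals were tested on simulated counts that held counting error only. That test could not show how they cover the spread between cells, which was larger for many genes. Genes named were the 20 leading in neutrophils, the 15 highest and 15 lowest ratios, the 15 with the largest excess variance, the ends of the component, and list members past 2-fold or with the most UMIs (6 per list), plus any named as chosen later. The members and lists were chosen with earlier results of these data known. Positions are from GENCODE vM21 (GRCm38), and promoters from RefSeq. Tables were computed in Python 3.11.15 with pandas 2.3.3 and NumPy 2.4.6, intervals with SciPy 1.17.1 and plots with matplotlib 3.10.9. All columns of values belonged to the 2 samples.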

Additional observations from a re-analysis of the deposited data

Results flagged for a closer look

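For 9 genes the ratio of neutrophils over the other kept cells was at least 2 in one library and at most 0.5 in the other. The difference was not tested, since there was 1 library per group. For 7 of them, all acinar genes or their neighbours in the exocrine pancreas, neutrophils were lower than the other kept cells in the FLOX library and higher in the library labelled MCT1-KO. Their CPM over that of the other kept cells was 0.185 and 2.67 for Cela1, 0.389 and 2.15 for Ctrb1, and 0.307 and 2.14 for Ctrl. It was 0.262 and 2.04 for Pnliprp1, 0.259 and 2.62 for Reg1, 0.50 and 2.82 for Reg2, and 0.349 and 2.50 for Try5. Ctsg and Mpo, primary granule genes, stood at 140 and 86.9 times the other kept cells in the FLOX library, with most of their FLOX UMIs from 1 cell. In the library labelled MCT1-KO neutrophils held no UMI of either, for which the exact interval runs up to 5.6 CPM. Their ratio of 0 there thus shows no level below that of the other kept cells.

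Among barcodes under 500 UMIs, which enter just the alternative without a UMI minimum, 9 in the FLOX library and 13 in the library labelled MCT1-KO met the rest of the neutrophil rule.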

How the results depend on the processing

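Of 17 alternatives, 15 were planned and 2 (free RNA scaled by collagen, and leaving out the cells with 10 or more granule UMIs) were added after seeing the data. No paired analysis was possible because each group holds 1 library, and no replicate could be left out. The neutrophil share in the FLOX library and the library labelled MCT1-KO was 3.85% and 3.70% without a UMI minimum, 6.65% and 3.92% at 1000 UMIs, 4.82% and 4.25% without the upper limit on genes, 5.16% and 4.18% at 20 S100 UMIs, 4.77% and 3.05% with 2 marker genes, 2.55% and 3.20% with no C1q and keratin UMI, and 5.4% and 4.25% without the 10% of neutrophils with the most UMIs.

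Against 146 genes 2-fold higher and 148 lower, there were 29 and 54 at 200 UMIs per gene (280 past 4-fold over other cells), 401 and 364 at 20 UMIs per gene, and 90 and 91 after thinning. There were 796 higher and 184 lower with free RNA scaled by acinar genes, 285 and 808 with free RNA scaled by collagen genes, and 85 lower with no C1q and keratin UMI. Subtracting free RNA by acinar genes put the median ratio of all genes at 1.20. Both subtractions took away more than the neutrophils held for some genes, as given for Apoe above, so their ratios are overcorrected for all genes.

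The median of the granule list was 2.01 with no C1q and keratin UMI, 2.45 without the deepest cells and 1.96 without the granule-rich cells, and that of heat shock genes 2.45 and 0.25 with the acinar and the collagen subtraction. Ratios went to the other side of 1 for Col1a1 (0.636), Col1a2 (0.742) and Dcn (0.545) at an S100 share of 1%, for Ms4a3 (2.09) with 2 marker genes, and for Col1a1 (0.247), Col1a2 (0.803), Dcn (0.459), Ltf (2.01) and Prtn3 (1.34) with no C1q and keratin UMI. The same held for Col1a1 (0.355), Col1a2 (0.592), Dcn (0.385) and Prtn3 (3.91) without the deepest cells, for Dnajb1 (3.43) and Pgk1 (1.45) with the acinar subtraction, for Dcn (0.685) after thinning and for Prtn3 (2.59) without the granule-rich cells. With the collagen subtraction it held for 2210010C04Rik (0.517), Cela3b (0.610), Clps (0.216), Cpa1 (0.696), Ctrb1 (0.152), Dcn (0.498), Jchain (1.31), Pnlip (0.752), Prss2 (0.233), Sycn (0.948), Try4 (0.277) and Try5 (0.568). By construction acinar genes have no value when acinar genes scale the subtraction. Otherwise the cause was not tested. Over the named genes 2811 values lay within the interval of the gene's own main ratio and 398 lay outside it. These labels do not measure the size of a shift, since that interval is narrow for genes with many UMIs and wide for sparse ones. Another 29 values, of genes past 2-fold, went to the other side of 1. Of the 125 named genes under 2-fold 60 went to the other side of 1 in at least 1 alternative.

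With 1089 to 1504 UMIs in the median neutrophil, genes near 50 UMIs have wide intervals, and Slc16a1 is below what this depth can compare. Intervals leave out the spread between animals, which these data cannot show.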

Other observations

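The genes below are in no list and were chosen after their values were seen. Dgat1 and Dgat2 both complete triglyceride synthesis. Dgat1 had 629 and 159 UMIs (FLOX and MCT1-KO), a ratio of 0.334 (0.279 to 0.398), and Dgat2 had 47 and 128 UMIs, a ratio of 3.6 (2.56 to 5.14), so that they lay on opposite sides of 1. In macrophage barcodes their ratios were 1.07 (0.914 to 1.25) and 1.76 (1.12 to 2.79). Fabp4, a fatty acid carrier, had 7 and 49 UMIs and stood at 58.5 and 132 CPM in free RNA.

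Outside exocrine genes the highest ratio belonged to Slc24a3, a sodium and calcium exchanger, with 11 and 99 UMIs and a ratio of 11.9 (6.37 to 24.6). Bcl2l15, of the BCL2 family, had 19 and 146 UMIs and a ratio of 10.2 (6.27 to 17.4), with 0.803 and 3.99 CPM in free RNA. Saa3 (serum amyloid A3, an acute-phase protein) had 37 and 227 UMIs and a ratio of 8.11 (5.71 to 11.8), and Prnp, the prion protein, 37 and 210 UMIs and 7.5 (5.27 to 10.9). Saa3 was also higher in macrophage barcodes (7.95 (7.47 to 8.45)) and Prnp was not (0.791 (0.64 to 0.974)). Gpr84, a receptor for medium-chain fatty acids, had 30 and 80 UMIs and a ratio of 3.52 (2.29 to 5.56). The further stefin genes Csta2 and Cstdc5 had ratios of 8.13 (4.5 to 15.9) and 6.7 (3.74 to 12.9), with the same doubt over shared reads.

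At the low end Ifi27l2a was lower in macrophage barcodes too (0.344 (0.323 to 0.366)), and the stress gene Ddit3 had a ratio of 0.272 (0.174 to 0.411). Basp1, a membrane protein, had 545 and 77 UMIs and a ratio of 0.187 (0.145 to 0.237). Free RNA stood at or above the neutrophil level for 25 of the 148 lower genes in the FLOX library and for 35 of the 146 higher genes in the library labelled MCT1-KO.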
